A study of Mus musculus with 8 samples.

Results

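The 32 genes described here are genes of fetal macrophages and of leukocytes in general, with Csf1r and Adgre1 as the defining macrophage markers. The genes were chosen by name for what their products are known to do, but with earlier results of these data known. They were followed in forelimb cells sorted for EGFP expressed from the locus of Bapx1 (Nkx3-2), a homeobox gene of the developing limb and axial skeleton. Of the 32 genes, 31 were represented on the Illumina mouse array, by 52 of its 45281 probes. Cd68, which encodes a lysosomal membrane glycoprotein of macrophages, had no probe named for it and was not analysed here.

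The samples were 4 wildtype and 4 Bapx1 null samples of forelimb at E12.5, on a mixed C57BL/6J and 129 background, with 1 array each, and the methods describe the replicates as biological. In the wildtype group 1 copy of Bapx1 was the tm2.Tlu allele, in which EGFP follows an internal ribosome entry site behind an intact coding sequence. The null group was homozygous for the tm4.Tlu allele, in which EGFP sits directly behind the start codon and Bapx1 is lost. Both groups therefore carried EGFP at this locus and were sorted on it, but the design and copy number of the reporter went with the genotype, and their effects cannot be told apart. The sort selected cells by EGFP, and which of the sorted cells held the transcripts of the list was not measured.

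Macrophages of the embryo arise from progenitors of the yolk sac and fetal liver, settle in the limb bud and clear dying cells there. Their survival depends on signalling through the receptor Csf1r, and the transcription factor PU.1, encoded by Spi1, directs much of their gene expression. They take up debris through scavenger and Fc receptors, produce complement C1q and degrade what they engulf in lysosomes, while the phosphatase CD45, coronin and other membrane and actin proteins are shared with further leukocytes.

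The promoters of the list were searched for a purine-rich motif of the kind bound by PU.1, spelled GAGGAAG on 1 strand, which reads as CTTCCTC on the other (both strands were searched), in RefSeq GRCm38.p6 windows that run from 250 bases before to 50 bases after a gene's start. A window was given for 22 of the 32 genes. The motif occurred in 9 of these 22 genes (40.9%), against 15.4% of all 27025 genes with a window and 13.6% of all 32851 windows. The shorter core GAGGAA, read on the opposite strand as TTCCTC and contained in every such match, occurred in 15 of the 22 genes (68.2%) and in 31.3% of all genes. Of the genes with a window, 6 of the 11 that were lower in the null samples held the longer motif, as did 3 of the 11 others (Fcgr1, Itgam and Pld4). These 3 were above background (detection p under 0.05) on no array. The 11 others thus include genes whose change could not be measured, and they are not a set of unchanged genes. The 30-base stretches around the matches in the 6 lower genes are shown as a description, each 5′ to 3′ on the strand that reads the motif, with the motif in capitals:
Ctss, chr3:95526774-95526803, minus strand: agcatccacaatGAGGAAGtgaactttcat
Cd53, chr3:106790124-106790153, plus strand: agcgagaagagtGAGGAAGtgagactgagt
C1qc, chr4:136893090-136893119, plus strand: gtgtgccaaaatGAGGAAGtgtctgccgtc
Laptm5, chr4:130913266-130913295, minus strand: cagaacaaaaaaGAGGAAGccacaggctgc
Fcgr3, chr1:171059392-171059421, plus strand: gaactacaaaaaGAGGAAGgaaatggactc
Mrc1, chr2:14229367-14229396, minus strand: aaaaggaggacaGAGGAAGctgtccctttt
Mrc1, chr2:14229235-14229264, minus strand: gctaaggcacagGAGGAAGgggagagagga
Each of these 7 matches reads on the strand opposite to its gene. Counted from the gene's start, they begin at -1 in Ctss, 7 in Cd53, -7 in Fcgr3, -39 in Laptm5, -36 and -168 in Mrc1 and -194 in C1qc. A match describes letters in a window and is no measured binding site. It was not tested against other lists or against the change between the genotypes.

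Over the 8 arrays the median probe intensity lay between 57.9 and 70.4, and 43.8% to 46.1% of probes were above background (detection p under 0.05). Levels are given below as normalized log2 intensity, and a probe was compared between the genotypes if it was above background on at least 4 of the 8 arrays. This left 20593 probes, and those among them with 1 named gene covered 11037 genes. Where a gene had several such probes, the brightest stands for it unless another is named. The arrays of null replicates 2 and 3 stood apart: the mean level of the Xist probes was 7.90 and 6.05 there against 9.90 to 10.68 on the other 6 arrays, and the mean of the Y-linked genes was 8.29 and 8.44 against 7.24 to 7.73. Their part in the results was not tested beyond the values given without them. Tbx5, the limb factor typical of the forelimb, was above background on all 8 arrays, as were Sox9 and Col2a1 of cartilage at any site. Of the genes typical of the hindlimb, Tbx4 (8.59 to 10.01) and Hoxc10 (5.20 to 6.42) were above background on all 8 arrays too, and Pitx1 on null replicate 1 alone (5.80, against 4.46 to 4.69 on the others), the array that was also highest for Tbx4 and Hoxc10. Neither Tbx4 nor Hoxc10 passed limma's test, with 1 higher at an unadjusted p under 0.05. Without null replicate 1 the call of each of the 20 compared member genes was unchanged, and the part of this array in the results was not tested further. None of the 16 measured genes of forelimb mesenchyme and cartilage passed limma's test (median log2 change 0.18), with 3 lower and 6 higher at an unadjusted p under 0.05.

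Most of the macrophage and leukocyte genes that could be compared were lower in Bapx1 null forelimb cells, among them receptors, lysosomal genes and pan-leukocyte genes. With scaling by the median absolute deviation, or with the methods' test per probe, 11 of the 20 compared genes were lower and 0 higher. Of all 20593 compared probes, 84 were lower with that scaling and 207 with that test. Of the 20 genes with a compared probe, 15 fell in the null (adjusted p under 0.05, limma's moderated test with Benjamini-Hochberg adjustment over all compared probes), none rose and 5 passed in neither direction, while 2.72% of all 11037 genes were lower and 2.22% higher. At an unadjusted p under 0.05, 18 were lower and 0 higher, with no share of all genes at that threshold to set beside it. In 16 of the 20 genes all null arrays lay below all wildtype arrays, against 7.36% of all genes. The median log2 change of the 20 was -1.35, or -1.27 with the genes below background in the null at their bounds, and that of all genes was 0.01. The list was chosen with earlier results of these data known, so these counts are not independent of those results. These 20 are not all members, and 4 of them (Fcgr3, Tyrobp, C1qb and C1qc) were compared only because the wildtype arrays were above background, so that they had to differ. With no filter, 16 of all 31 genes with a probe were lower and none higher (1.51% and 1.13% of 19057 genes), with a median log2 change of -0.80, and in 17 of the 31 the groups did not overlap (5.14% of all genes). Counted by probe, 19 of the 25 compared member probes were lower (2.12% of all compared probes), and 21 had all null arrays below all wildtype arrays (6.39%). Both counts include the probes of the 4 genes named above and a second probe of Aif1, which was likewise compared only through the wildtype arrays. In bulk samples such as these, fewer cells of a type and less RNA per cell cannot be told apart.

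Without null replicates 2 and 3 the count was again 15 of 20 lower and none higher, with a median log2 change of -1.28, and without null replicates 1 and 4 it was 15 of 20 with a median of -1.41. The call of each of the 20 genes was unchanged in both fits. The level of the list differed between the arrays of a group as well: the mean over the 20 genes was 7.59, 7.07, 7.09 and 7.16 on the wildtype arrays, in the order of their replicate numbers, and 6.05, 5.80, 5.75 and 5.91 on the null arrays. Wildtype replicate 1 was the highest wildtype array for 16 of the 20 genes, and null replicate 1 the highest null array for 11. The gap between the groups was wider than this spread, since the lowest wildtype mean exceeded the highest null mean by more than the range within either group.

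**Figure D1:**
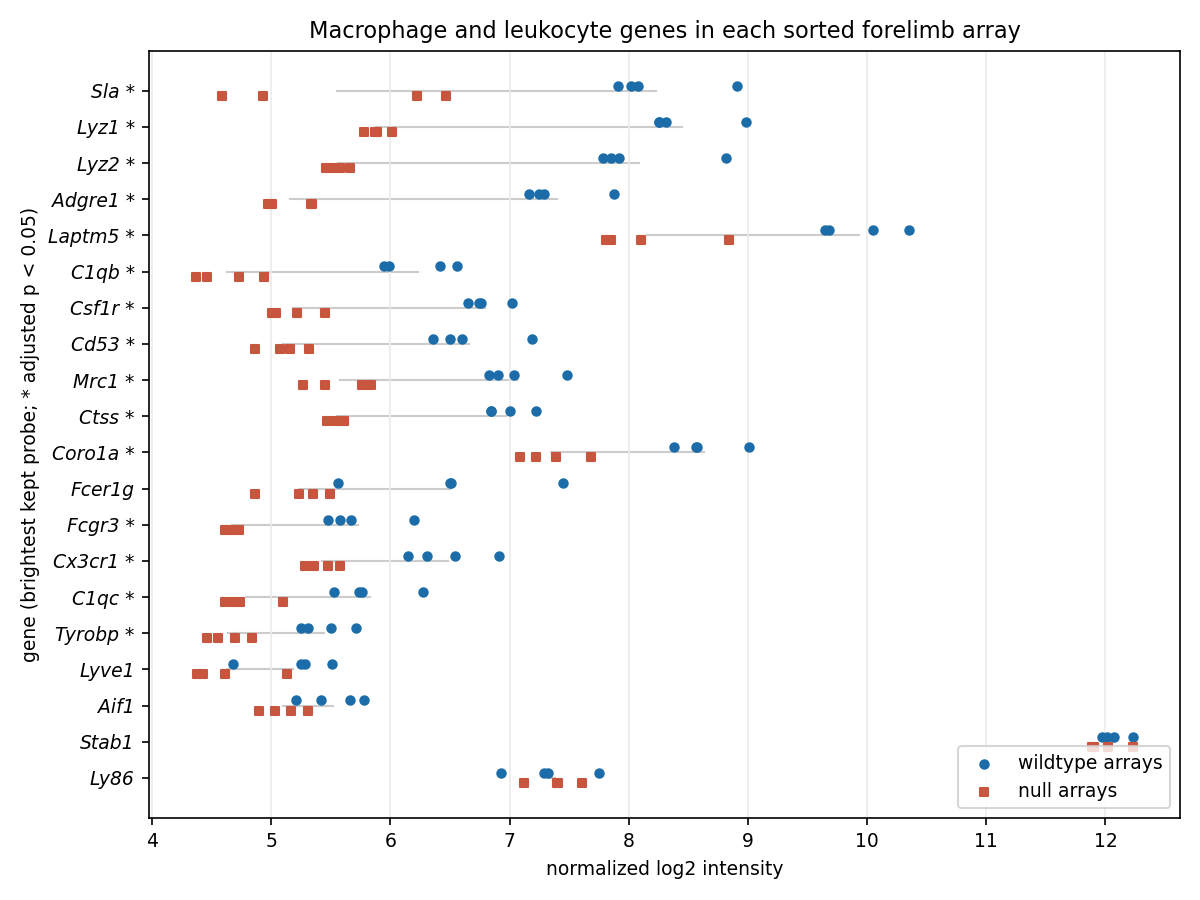
Normalized log2 intensity (horizontal axis) of the 20 member genes with a compared probe (vertical axis, ordered by the size of the change), with 1 point per array: circles for the 4 wildtype arrays, squares for the 4 null arrays, and a grey line joining the group means. The groups are separate in 16 genes, and in Ly86, Stab1, Lyve1 and Aif1 they overlap; levels of different genes are not comparable.

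Both defining markers fell. Csf1r, the receptor for the macrophage growth factors CSF1 and IL-34, was 7.02, 6.65, 6.74 and 6.76 in the wildtype, and 5.45, 5.01, 5.04 and 5.22 in the null, values being given here and below in the order of replicates 1 to 4. The groups were far apart, and the null arrays were close to background, with 2 of the 4 above it. The log2 change was -1.61 (SE 0.12), which is 3.06-fold lower with an adjusted p of 2.3e-04. A second Csf1r probe was above background on no array.

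Adgre1, which encodes the macrophage surface protein F4/80, was 7.88, 7.29, 7.16 and 7.25 in the wildtype and 5.01, 5.34, 4.97 and 5.33 in the null. It was 4.71-fold lower (log2 change -2.23, SE 0.16, adjusted p = 2.3e-04; -1.35 without background correction), and again only 2 of the 4 null arrays were above background. A second probe fell as well (-1.60, SE 0.18, adjusted p = 0.00193), and the last was above background on no array. Cx3cr1, the fractalkine receptor of monocytes and macrophages, was 6.91, 6.31, 6.54 and 6.15 against 5.48, 5.28, 5.36 and 5.58. Here all 8 arrays were above background and the groups did not overlap (log2 change -1.05, SE 0.15, adjusted p = 0.00595). The probe for Spi1, the gene of PU.1, was above background on no array, with levels of 4.42 to 4.53 in the wildtype and 4.40 to 4.53 in the null, so that no change could be measured.

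The scavenger and surface receptors were not uniform. Mrc1, the mannose receptor CD206 of tissue macrophages, was 7.48, 6.90, 6.83 and 7.04 in the wildtype and 5.45, 5.84, 5.76 and 5.27 in the null, and fell by 1.48 on the log2 scale (SE 0.17, adjusted p = 0.0019). Among the null arrays, replicates 2 and 3 were the higher ones for this gene, the opposite of their place for Csf1r.

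The probes of Stab1, a scavenger receptor of macrophages and sinusoidal endothelium, disagreed. Its brightest probe was 11.97 to 12.23 in the wildtype and 11.89 to 12.23 in the null (log2 change -0.06, SE 0.10, adjusted p = 0.821). A second probe was 6.44, 6.25, 5.95 and 6.58 against 5.56, 5.22, 5.17 and 5.01 and fell by 1.06 (SE 0.16, adjusted p = 0.00598). In the remaining probe the groups were apart as well, with a log2 change of -0.40 (SE 0.10) that did not pass (adjusted p = 0.075). Which of the 3 probes reports Stab1 most faithfully was not tested.

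Lyve1, a hyaluronan receptor of lymphatic endothelium and of some macrophages, was 5.51, 5.28, 4.68 and 5.25 in the wildtype and 5.13, 4.38, 4.43 and 4.61 in the null. Its groups overlapped and its log2 change of -0.54 (SE 0.20) did not pass (adjusted p = 0.204). Ly86, which encodes the secreted MD-1 partner of a Toll-like receptor relative on B cells and myeloid cells, was 6.93, 7.32, 7.75 and 7.29 against 7.12, 7.41, 7.61 and 7.40. It was above background on all 8 arrays, with overlapping groups and a log2 change of 0.06 (SE 0.17, adjusted p = 0.9). Cd14, the lipopolysaccharide co-receptor, was above background on 1 wildtype and 1 null array and was not compared.

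Of the 4 Fc receptors and adaptors, Fcgr3 and Tyrobp were above background on all wildtype arrays and on no null array. Both were thus compared only through the wildtype arrays, so that they had to differ, and their adjusted p-values are no independent support. Where no null array was above background, the change is given as a bound, from the wildtype mean to the lowest signal above background or the probe's own level, as the smallest of the bounds under the background treatments run. Fcgr3, a low-affinity receptor for IgG, was 6.20, 5.58, 5.48 and 5.67 in the wildtype and 4.70, 4.73, 4.64 and 4.61 in the null. It was at least 1.25-fold lower (adjusted p = 0.00415). Tyrobp, the DAP12 adaptor through which TREM2 signals, was 5.50, 5.71, 5.31 and 5.25 against 4.84, 4.55, 4.46 and 4.70. It was at least 1.13-fold lower (adjusted p = 0.00767).

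Fcer1g, the common gamma chain that carries the signal of several Fc receptors and of the platelet collagen receptor, was 7.45, 5.56, 6.51 and 6.50 in the wildtype and 5.49, 5.23, 4.86 and 5.35 in the null. All null arrays lay below the wildtype, but the wildtype spread was wide and the log2 change of -1.27 (SE 0.33) did not pass (adjusted p = 0.0713). It passed when wildtype replicate 2, the lowest of its group, was left out (adjusted p = 0.0174). Fcgr1, the high-affinity IgG receptor, was above background on no array. Its levels were nonetheless separate, at 4.74 to 4.84 against 4.42 to 4.55, with an adjusted p of 0.0179 in the fit without a filter, and no fold is given.

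The chains of C1q, which opens the classical complement pathway and is made by macrophages, were split. C1qb was 6.56, 5.99, 5.95 and 6.42 in the wildtype and 4.94, 4.46, 4.73 and 4.37 in the null, where no array was above background. It was at least 1.51-fold lower (adjusted p = 0.00135). C1qc was 6.27, 5.76, 5.74 and 5.53 against 4.74, 4.69, 4.61 and 5.10, and was at least 1.29-fold lower (adjusted p = 0.00843). No null array was above background for C1qc either. Both chains were thus compared only through the wildtype arrays and had to differ, and their adjusted p-values are no independent support. The probe for C1qa, whose gene follows C1qc, itself next to C1qb, in the RefSeq order, was above background on wildtype replicate 1 alone and was not compared.

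The lysosomal genes included the changes with the smallest adjusted p-values on the list. Lyz1, a lysozyme that cleaves bacterial cell walls, was 8.98, 8.25, 8.25 and 8.31 in the wildtype and 6.01, 5.78, 5.89 and 5.87 in the null. The null arrays lay within a narrow band above background, and the gene was 5.91-fold lower (log2 change -2.56, SE 0.16, adjusted p = 7.4e-05). Lyz2, the lysozyme typical of myeloid cells, was 8.82, 7.78, 7.85 and 7.92 against 5.58, 5.46, 5.52 and 5.66. It was 5.8-fold lower (log2 change -2.54, SE 0.21, adjusted p = 3.3e-04). Lyz1 and Lyz2 are neighbouring, closely similar genes, and how much of either signal came from the other transcript was not tested. The other 4 probes of these genes were above background on 1 array at most.

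Ctss, the lysosomal protease cathepsin S of antigen-presenting cells, was 7.22, 7.0, 6.84 and 6.84 in the wildtype and 5.47, 5.61, 5.60 and 5.54 in the null. Its spread within groups was small, and the log2 change was -1.42 (SE 0.10, adjusted p = 1.5e-04). Laptm5, a lysosomal membrane protein of blood cells, was 10.35, 9.68, 9.65 and 10.05 against 8.84, 7.85, 7.81 and 8.10. It stayed well above background in the null and was 3.45-fold lower (log2 change -1.79, SE 0.24, adjusted p = 0.00395). Pld4, an endolysosomal nuclease of myeloid cells, was above background on no array.

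The remaining myeloid effector genes were below the reach of the arrays. Cybb, the catalytic subunit of the phagocyte NADPH oxidase, and Rac2, the small GTPase that activates it, were above background on no array. The same held for Itgam, the integrin chain CD11b. Its partner Itgb2, the CD18 chain shared by leukocyte integrins, was above background on wildtype replicate 1 only, at 5.22.

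Among the pan-leukocyte genes, Cd53, a tetraspanin of leukocyte membranes, was 7.19, 6.50, 6.60 and 6.36 in the wildtype and 5.32, 5.07, 5.16 and 4.86 in the null. It was 2.95-fold lower (log2 change -1.56, SE 0.17, adjusted p = 0.00182). Coro1a, the actin-binding coronin of haematopoietic cells, was 9.01, 8.38, 8.56 and 8.57 against 7.68, 7.22, 7.09 and 7.39. It was above background on all 8 arrays and 2.44-fold lower (log2 change -1.28, SE 0.16, adjusted p = 0.00285). Its second compared probe fell by 1.09 on the log2 scale (SE 0.19, adjusted p = 0.0135).

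Sla, the Src-like adaptor that dampens antigen receptor signalling in lymphocytes, had a null spread of 0.93 (SD), against 0.05 to 0.48 in the other 19 compared genes. It was 8.91, 8.08, 7.91 and 8.02 in the wildtype and 6.22, 4.93, 4.59 and 6.47 in the null. Null replicates 2 and 3 were not above background, while replicates 1 and 4 were. The log2 change was -2.68 (SE 0.42, adjusted p = 0.00805). Its 2 other probes were above background on no array.

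Aif1, which encodes the macrophage and microglial protein Iba1, was 5.66, 5.21, 5.42 and 5.78 against 5.31, 5.17, 5.03 and 4.90 on its brightest probe. The groups overlapped, and the log2 change of -0.41 (SE 0.14) did not pass (adjusted p = 0.152). A second probe was above background on no null array and was compared only through the wildtype arrays, so that it had to differ. On it the groups were apart and the level was at least 1.05-fold lower (adjusted p = 0.0229). Lcp1, the actin bundler L-plastin of leukocytes, was above background on 2 wildtype arrays and no null array and was not compared. Ptprc, the gene of CD45 by which leukocytes are usually defined, had 4 probes, and none was above background on any array.

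**Figure D2:**
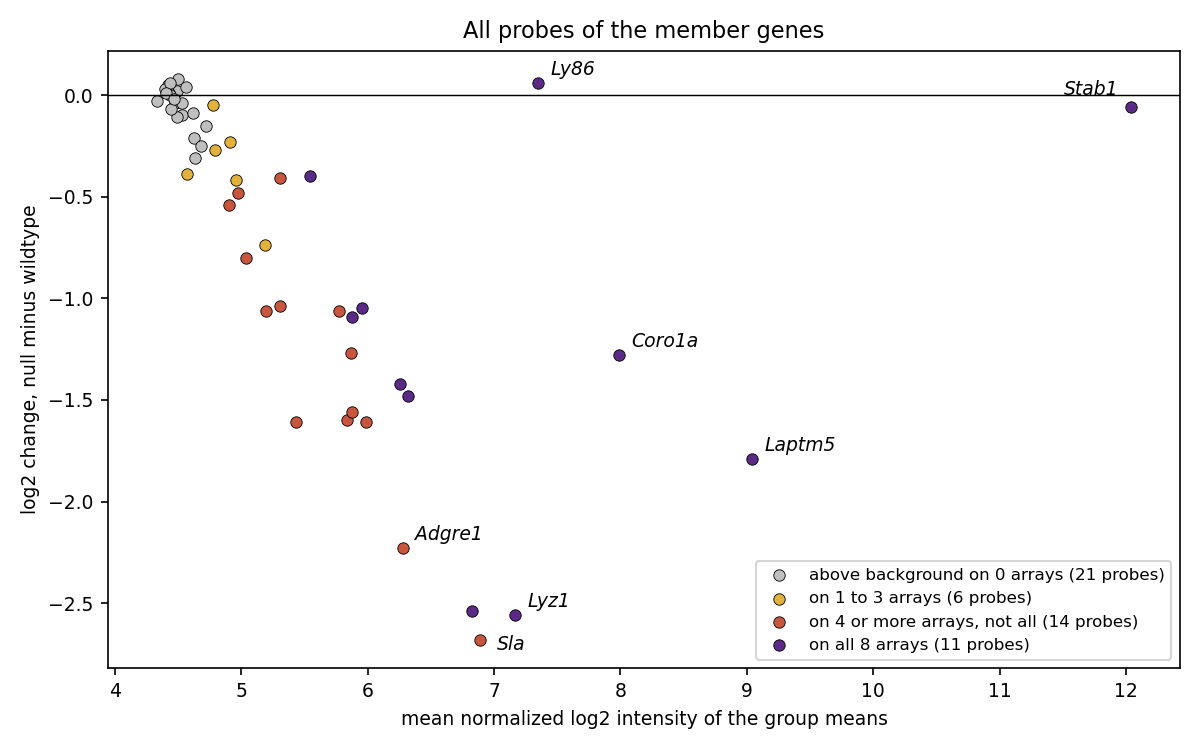
Log2 change, null minus wildtype (vertical axis), of all 52 probes of the member genes against the mean of the group means of normalized log2 intensity (horizontal axis), coloured by the number of arrays above background. The 21 probes above background on no array lie at the left close to 0, and the compared probes reach down to the -2.68 of Sla; points of probes below background in the null show fitted values, not bounds.

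The probes that were dim on every array bound what the list can show. In all, 7 of the 31 genes (Spi1, Fcgr1, Pld4, Cybb, Rac2, Itgam and Ptprc) had no probe above background on any array, and 4 more (Cd14, C1qa, Itgb2 and Lcp1) were above it on too few arrays to be compared. By array, 24, 20, 19 and 21 of the 31 genes were above background on the wildtype arrays, and 15, 13, 11 and 13 on the null arrays. Of the 20 compared genes, 19 were above background on all 4 wildtype arrays and 9 on all 8 arrays. Of those 9, Ly86 and the brightest probe of Stab1 were the ones that did not fall, so that 7 of the 9 were lower in genes that stayed measurable in the null. With the test limited to probes above background on all 8 arrays, 310 of all 17870 probes were lower.

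The sizes of several changes rested on the background correction. Without it the log2 change was -0.89 for Csf1r, -1.35 for Adgre1, -1.86 for Lyz1, -1.73 for Lyz2, -0.85 for Cd53 and -1.82 for Sla, each still called but a fold over 1.5 times smaller than that given above. The calls of several members rested on the scaling or the test. With scaling by the median absolute deviation, as the methods describe, Laptm5 (adjusted p = 0.197), Tyrobp (0.0989), Coro1a (0.0874) and C1qc (0.064) did not pass, at nearly the same log2 changes. With the methods' test per probe in place of limma's, Sla (adjusted p = 0.0686), C1qc (0.062), Cx3cr1 (0.0515) and Tyrobp (0.0507) did not pass. Leaving out any 1 array removed none of the 15 calls.

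Further genes of macrophages and leukocytes, from lists that do not share a gene with the 32, gave the following counts. Of 36 other macrophage receptors and surface genes, 34 had a probe and 6 could be compared, and 2 of these fell (1 with the methods' scaling), 1 rose and 3 passed in neither direction (median log2 change 0.03). Mpeg1, a pore-forming protein of macrophages, was 7.94, 7.43, 7.53 and 7.65 in the wildtype and 5.74, 5.71, 5.69 and 5.55 in the null, a log2 change of -1.97 (SE 0.11, adjusted p = 4.9e-05). Trem2, the lipid receptor that signals through Tyrobp, was compared only through the wildtype arrays, so that it had to differ, and was at least 1.12-fold lower. Tlr2, a Toll-like receptor for bacterial lipoproteins, was the one that rose, from 6.64, 7.03, 7.11 and 6.83 to 7.60, 7.56, 7.40 and 7.78 (log2 change 0.68, SE 0.12, adjusted p = 0.0155).

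Of 30 further lysosomal and secreted products, 17 could be compared, and 4 fell and none rose (median -0.11), or 2 with the methods' test or scaling. F13a1, the factor XIII chain made by macrophages and platelets, fell by 1.56 on the log2 scale (SE 0.15, adjusted p = 8.5e-04). Lgals3, the lectin galectin-3 of activated macrophages, fell by 1.44 (SE 0.18, adjusted p = 0.00271). Apoe, a lipid carrier named here because it completes the calls of this list, fell by 0.64 (SE 0.12, adjusted p = 0.0201). Pf4, a chemokine of platelet granules also made by some macrophages, had the largest change of the list at -3.07 (SE 0.51, adjusted p = 0.0109). The cathepsins B and D, which most cell types make, did not pass, with log2 changes of -0.12 (SE 0.07, adjusted p = 0.434) and 0.11 (SE 0.14, adjusted p = 0.754).

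Of 40 further genes of leukocyte signalling, the oxidase and actin, 19 could be compared, and 7 fell and none rose (median -0.40), or 3 with the methods' test. Plek, or pleckstrin, a protein kinase C substrate of platelets and leukocytes, fell by 2.51 (SE 0.39, adjusted p = 0.00805). Lcp2, the SLP-76 adaptor of lymphocytes, mast cells and platelets, was 7.72, 6.61, 6.98 and 6.95 in the wildtype and 5.65, 4.60, 4.59 and 4.98 in the null (log2 change -2.11, SE 0.28, adjusted p = 0.00361). Btk, the kinase of B cells and myeloid cells, was at least 1.9-fold lower. Btk and Fermt3, named here for this reason, were compared only through the wildtype arrays, so that these 2 of the 7 calls had to differ. Without background correction the log2 change was -1.29 for Mpeg1, -0.89 for F13a1, -0.80 for Lgals3 and -1.22 for Lcp2. The differences between these lists and the 32 genes were not tested.

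The signals that sustain macrophages did not pass the test. None of the 6 compared genes of macrophage growth factors and ligands fell or rose in limma's test (median -0.13), with 1 lower and 0 higher at an unadjusted p under 0.05. Csf1, the growth factor that binds Csf1r, was 6.03, 6.25, 6.36 and 6.19 in the wildtype and 5.82, 6.07, 6.06 and 6.11 in the null, a log2 change of -0.19 (SE 0.10, adjusted p = 0.369). Il34, the second ligand of that receptor, was above background on no array. Among 12 compared transcription factors of myeloid cells, Nfe2, a factor of megakaryocytes and erythroid cells, fell by 1.24 (SE 0.22, adjusted p = 0.0143), and Klf4, a factor of monocytes and of epithelia, rose by 0.59 (SE 0.11, adjusted p = 0.0162). In 11 compared genes of apoptotic cell engulfment, Elmo1, an activator of Rac in phagocytosis, was the one that fell (-0.67, SE 0.12, adjusted p = 0.0174) and none rose. The calls of Tlr2, Nfe2, Klf4 and Elmo1 were lost without wildtype replicate 4, with the methods' scaling and with the methods' test, while without null replicates 2 and 3 there was 1 lower call among the growth factors and ligands.

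**Figure D3:**
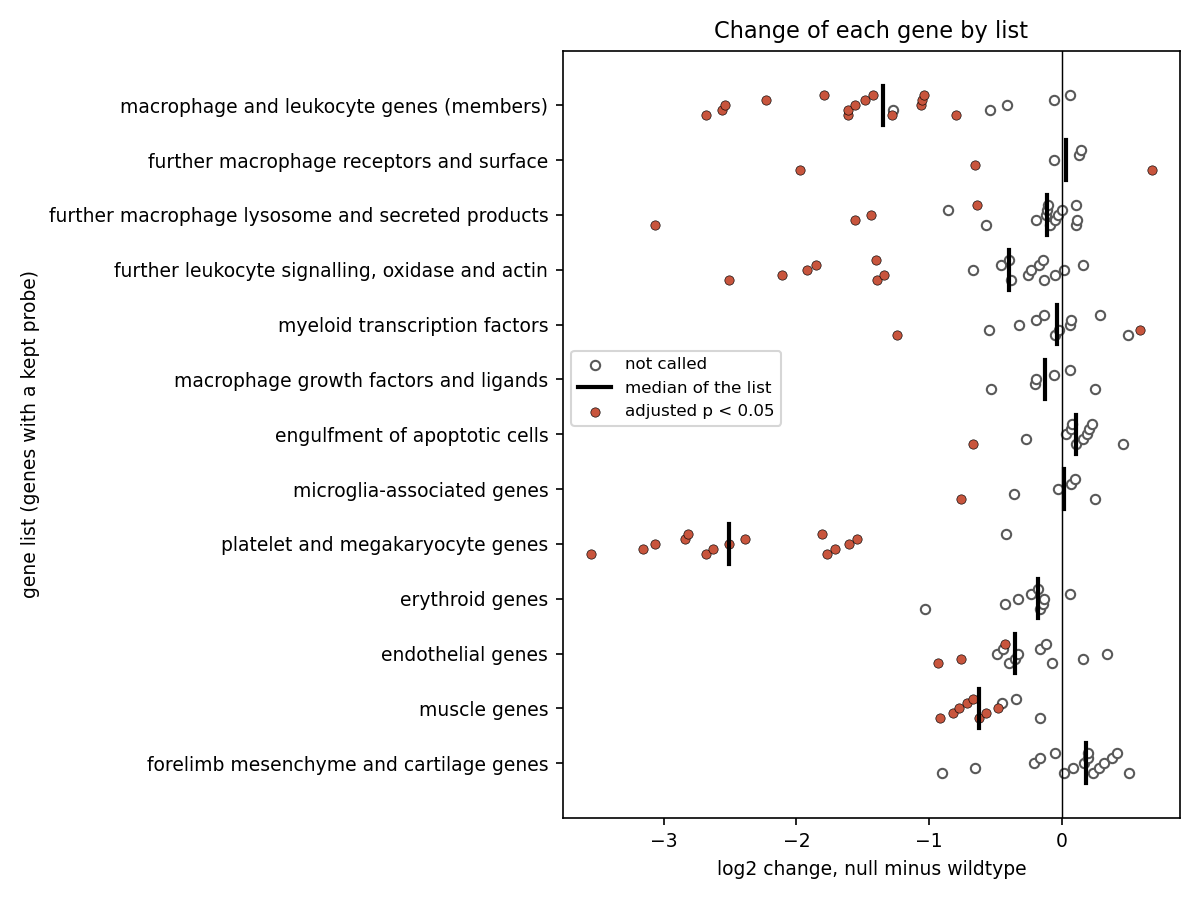
Log2 change, null minus wildtype (horizontal axis), of each compared gene in the member list and in other lists (vertical axis), with filled points for adjusted p under 0.05, open points otherwise and a bar at the median of the list. The members (median -1.35) and the platelet genes (median -2.51) lie furthest to the left, with the forelimb mesenchyme genes around 0.18; fitted values are shown for genes below background in the null.

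Markers of some other cell types, chiefly platelet and muscle genes, moved with the members, and their part in the result was not tested. None of 6 epithelial genes (0 lower and 2 higher at an unadjusted p under 0.05) or 2 Schwann cell genes (1 lower, 1 higher) passed limma's test. Of 15 platelet and megakaryocyte genes, 14 fell and none rose (3 with the methods' test and 6 with the methods' scaling), with a median log2 change of -2.51, and the log2 of their summed level was 13.55 to 14.42 in the wildtype and 9.93 to 11.84 in the null. Of the 14, the collagen receptor gene Gp6, was compared only through the wildtype arrays and had to differ. Plek and Pf4 belong to this list too, and Fcer1g and Lcp2 are also used by platelets. Of 9 erythroid genes none passed limma's test (median -0.18, 1 lower at an unadjusted p under 0.05), and their summed level of 11.12 to 13.46 overlapped with the 11.05 to 12.56 of the null. Of 13 endothelial genes 3 fell (median -0.35), at a summed level of 11.09 to 11.40 against 10.85 to 11.12, and of 11 muscle genes 8 fell (median -0.62), at 12.04 to 12.23 against 11.44 to 11.69. With the methods' scaling 0 genes of either list passed, and with the methods' test 1 endothelial and 6 muscle genes did. Leaving out 1 array gave 1 to 4 endothelial calls, with the count of 1 when null replicate 2 was left out, and 6 to 8 muscle calls. The T cell receptor genes Cd3d, Cd3e and Cd3g and the neutrophil genes Mpo and Elane were above background on no array. Of the 17 compared genes of dissociation stress none passed limma's test (median -0.06), with 1 lower and 4 higher at an unadjusted p under 0.05.

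The spread of the null arrays is given side by side for the platelet and member genes. The mean of null replicates 1 and 4 minus that of null replicates 2 and 3 was positive for all 15 platelet genes, from 0.28 to 2.04 log2 units (median 1.06). For the 20 members it ran from -0.44 to 1.58 with a median of 0.11, and its median over all genes was 0.00. The highest member was Sla at 1.58, and the others called lower ran from -0.44 to 0.64. Of these, Laptm5 (0.64), Coro1a (0.38) and the marker Csf1r (0.31) also lay within the range of the platelet genes, while Adgre1 was at 0.01. For Pf4 the null arrays were 10.56, 8.88, 8.27 and 10.65. The 5 further macrophage genes that fell, leaving out Pf4, ranged from -0.10 to 0.23 (median 0.14), and the 6 further leukocyte signalling genes that fell, leaving out Plek, from 0.02 to 0.72 (median 0.31). These pairs of arrays were set apart by Xist and Y-linked levels and are not groups of the study, and the difference between the lists was not tested.

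**Figure D4:**
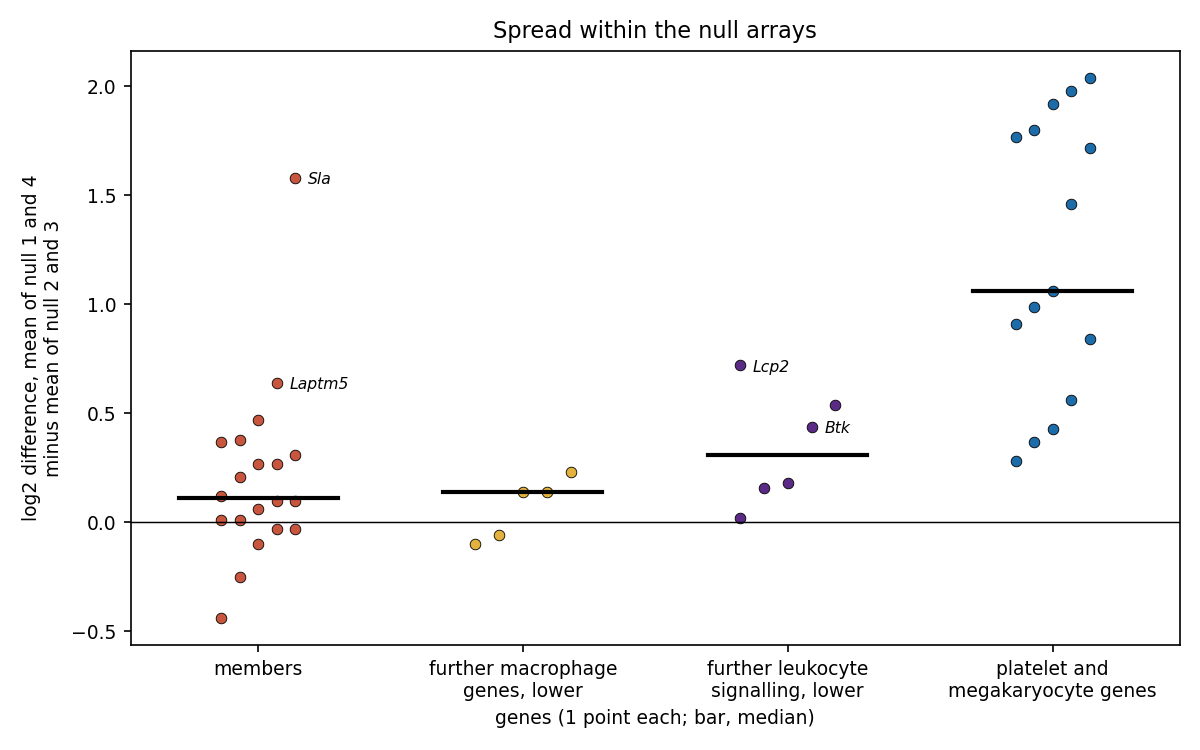
Mean normalized log2 intensity of null replicates 1 and 4 minus that of null replicates 2 and 3 (vertical axis) for each gene of 4 sets (horizontal axis), with 1 point per gene and a bar at the median. Points at 0 mark genes at the same level on both pairs of null arrays; the platelet genes have a median of 1.06, the members one of 0.11, and the ranges of the sets overlap.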

How the data were processed

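RNA of EGFP-sorted forelimb cells was hybridized to Illumina MouseWG-6 v2 arrays, 1 per sample (4 wildtype, 4 null). Linear intensity per probe was deposited by the authors. The methods name background subtraction in GenomeStudio, whose version is not given in the sources used here, but no intensity lies below 0, and the values were taken as not subtracted. The detection column that was deposited with them is a fraction that rises with brightness, so the detection p was taken as 1 minus it. Processed log2 values were deposited by the authors too, shifted per array, whose baseline per probe is unknown. The methods give scaling by the median absolute deviation, filtering on percentiles and an analysis of variance per probe. No array build was given, so no probe positions are used, and the promoter windows and gene order were taken from RefSeq.

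Rows of the tables were matched through the differences between arrays, 1 to 1 (largest distance 3.01e-06, smallest distance to the next-best row 0.018, log2 scale). The platform annotation named 1 gene for 34885 probes and several for 18; 10378 were unnamed here. For background correction, nec of limma 3.58.1 was run in R 4.3.3 with an offset of 16, then log2 and quantile normalization. Kept probes had a detection p under 0.05 on 4 or more of the 8 arrays of either group. Null was compared with wildtype by lmFit and eBayes, two-sided, at a threshold of 0.05 after Benjamini-Hochberg adjustment across all 20593 kept probes, and all p-values are limma's unless the methods' test is named. The brightest kept probe stood for a gene. A bound is the smallest under nec, normexp fitted by saddle point (offset 50) and no correction. The chain was tested on simulated data.

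The members and lists were chosen with earlier results of these data known. All 32 members are named, with up to 3 genes of another list by size of change plus defining markers. Apoe, Cpa3, Ctsb, Ctsd, Fermt3, Gp6 and the annotated points of the plots were named after their values were seen. Alternatives covered scaling, background, the processed values, filters, variance model, array weights, test, replicate block, probes of a gene, the Y-linked level and each array left out. Replicate numbers were not used to pair the samples in the main fit. A chip block was not run, since no source used here gives the chip. The number of arrays limits the precision.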

Additional observations from a re-analysis of the deposited data

Results flagged for a closer look

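Within the groups of 4 arrays, 3 of the 64 groups tested held 1 array far from the other 3, by the gap of the end value over the range of the group, and chance marks about 1 in 20 groups. Lyz1 was 8.98 in wildtype replicate 1 against 8.25 to 8.31 in the other wildtype arrays, and its log2 change without that array stayed called. Lyz2 was 8.82 in the same array against 7.78 to 7.92. Spi1 was 4.42 in wildtype replicate 2 against 4.52 to 4.53, but this probe was above background on no array.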

How the results depend on the processing

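Of the 20 compared genes, 15 were lower in the null, with 15 to 16 lower, 0 higher and a median log2 change of -1.47 to -1.25 when 1 array at a time was left out. Requiring a detection p under 0.05 on all 8 arrays left 9 genes, of which 7 were lower, because fewer genes were tested. Of all 17870 probes that met this filter, 310 were lower. The median of -1.35 became -0.85 without background correction, -0.86 with saddle-point normexp and an offset of 50, -0.98 in the processed values, -1.06 with the percentile filter (23 genes) and -0.80 without a filter (31 genes); the last 2 hold other genes, and the cause of the others was not tested. With the replicate number as a block, 15 were lower and all 20 calls were the same. Same-numbered arrays did not deviate together (correlations of 0.06, 0.24, -0.18 and -0.26). These values cannot settle whether same-numbered samples were handled together, and the main fit used no pairing. Counts over all probes moved more than those of the members: 817 of 20593 passed, against 115 with scaling by the median absolute deviation, where 11 members were lower, and 378 with the methods' t-test, where 11 were lower after adjustment and 17 before it. A count over all probes before adjustment is not given here. Besides the calls named above, C1qc was lost once the Y-linked level entered the fit (adjusted p = 0.0514) and Cx3cr1 in the processed values (0.0508). Array weights added Lyve1 (0.0282) and Fcer1g (0.0171), and the mean over a gene's probes added Stab1 (0.0166), Fcer1g (0.0448) and Aif1 (0.0326). No member changed direction with a call. Dim signal is a limit, since 11 of 31 genes could not be compared.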

Other observations

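Genes of the neutrophil, lymphoid and mast cell lists were mostly below the reach of these arrays. Of 14 neutrophil and granule genes 2 could be compared and neither passed limma's test (1 lower at an unadjusted p under 0.05), and of 12 lymphoid genes with a probe 2 could be compared and neither passed (0 at an unadjusted p under 0.05). Of 10 mast cell genes 3 could be compared, and Kit, the stem cell factor receptor of mast cells, progenitors and melanocytes, was the one called, with a log2 change of 0.66 (adjusted p = 0.0091), a call that was lost with scaling by the median absolute deviation, in the processed values and once the mean of the Y-linked genes entered the fit. Cpa3 of the mast cell list was above background on null replicates 2 and 3 alone (6.34 and 6.41, against 4.41 to 5.02 on the other arrays) and was not compared. The progenitor factor Tal1 (at least 1.08-fold lower) and P2ry12, the ADP receptor of microglia and platelets (at least 1.17-fold lower), were above background on the 4 wildtype arrays and no null array, so that they had to differ once compared. Neither passed with scaling by the median absolute deviation. The antigen presentation genes Cd74, H2-Aa, H2-Ab1 and H2-Eb1 were above background on no array. Ifitm3, an interferon-induced membrane protein, had a log2 change of 0.41 (adjusted p = 0.0162), which was not called with that scaling, in the processed values, with a replicate block or without null replicate 2 or 4. The class I gene H2-K1 had one of -0.54 (adjusted p = 0.0468), but its call was lost whichever array was left out.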
